A study of Mus musculus with 48 samples.

Results

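Fcgr1, Fcgr4, Sirpa and Ncf1, 4 phagocyte genes among the 478 listed for a glial panel, were followed through the 3 pairwise comparisons of rearing groups in hippocampal microglia of mouse pups. The genes were chosen by function, as activating Fc gamma receptors (Fcgr1, Fcgr4), the "don't eat me" receptor Sirpa and the NADPH oxidase subunit Ncf1, and all 4 had a row in each table. The choice was made with earlier results of these data known. The pups were 17 days old, of strain Balbc/Byj and of both sexes, and had been reared under UPS, LB or control (CTL) conditions, 16 animals to a group with males and females in equal number (8 each). Per the labels, about 60000 microglia per animal were purified by density gradient and flow cytometry and lysed, and RNA was counted with barcoded probes without amplification, in 4 batches of 12 that each held 2 libraries of every group and sex. As background, UPS and LB are early-life stress models, unpredictable stress and limited bedding. Some pups were siblings (4 to 5 litters for each set of 8), and the p-values, which treat every pup as independent, would be too small where siblings are alike.

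The deposited data are the authors' comparison tables, with a log2 ratio, a linear ratio, a p-value and an adjusted p-value per gene and with the sexes pooled. Levels in single animals, their depth and their overlap between groups were not analysed here. The headers do not name the numerator of a ratio. Signs are given as deposited: if each ratio is the stress group over CTL, and UPS over LB, a positive sign means more transcript in the first of these, and the opposite reading turns every sign in the 3 tables together. In sorted cells measured in bulk, fewer cells that express a gene and less RNA per cell cannot be told apart. All 18 microglial markers on a chosen list had a row, whereas none of 14 monocyte markers and 1 of 14 neutrophil markers did. Below, a gene is called measured if it had a row, and the panel means the 478 genes with a row. Per the series text, genes above 20 counts were kept. A gene without a row may therefore have been counted below that level or not probed, and the sources used here do not say which.

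Microglia, the macrophages of the brain, bind antibody-coated targets through Fc gamma receptors. Fcgr1 (CD64) is the high-affinity receptor for IgG, and Fcgr4 is a mouse receptor that binds the IgG2 subclasses; in mice both signal through the shared Fc receptor gamma chain, Src family and Syk kinases and PI3-kinase. Sirpa is an inhibitory receptor that binds Cd47 on other cells and recruits the tyrosine phosphatases Shp1 and Shp2, and in the developing mouse visual system Cd47 and Sirpa are known to protect synapses from microglial removal. Ncf1 (p47phox) is the cytosolic organiser of the phagocyte NADPH oxidase, which makes superoxide after protein kinase C phosphorylates Ncf1 and the complex assembles at the membrane.

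The sequences just upstream of the starts of Ncf1, Fcgr1 and Fcgr4 are shown because Ncf1 passed the test and Fcgr1 and Fcgr4 are the activating receptors of the same family. RefSeq promoters of the GRCm38.p6 build, from strain C57BL/6J and not from the animals' own strain, matched 3 of the 4 genes. The 250 bases that end just before the annotated start are printed 5′ to 3′ on the gene's strand, at chr5:134229626-134229875 (minus strand) for Ncf1, chr3:96293970-96294219 (minus strand) for Fcgr1 and chr1:171018676-171018925 (plus strand) for Fcgr4. Capitals mark matches, on either strand, to GAGGAA (the core bound by the myeloid factor PU.1), TTCNNNGAA (the gamma-activated site of interferon gamma signalling) and the core of the interferon-stimulated response element, which is GAAA repeated after any 2 bases.
Ncf1: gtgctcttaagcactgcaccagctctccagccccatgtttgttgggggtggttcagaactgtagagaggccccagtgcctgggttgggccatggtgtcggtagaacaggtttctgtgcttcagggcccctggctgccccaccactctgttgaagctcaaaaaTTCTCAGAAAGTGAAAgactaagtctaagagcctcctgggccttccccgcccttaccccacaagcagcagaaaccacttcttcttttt
Fcgr1: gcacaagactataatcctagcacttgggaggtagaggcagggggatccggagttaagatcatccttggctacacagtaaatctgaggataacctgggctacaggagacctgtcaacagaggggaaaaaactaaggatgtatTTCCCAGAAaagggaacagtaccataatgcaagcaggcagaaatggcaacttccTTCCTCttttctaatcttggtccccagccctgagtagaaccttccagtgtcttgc
Fcgr4: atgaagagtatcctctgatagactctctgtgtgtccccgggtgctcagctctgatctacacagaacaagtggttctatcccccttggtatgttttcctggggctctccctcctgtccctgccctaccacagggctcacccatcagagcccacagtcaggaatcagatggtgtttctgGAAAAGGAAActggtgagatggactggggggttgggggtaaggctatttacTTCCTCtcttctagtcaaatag
In Ncf1 the run in capitals joins a match to TTCNNNGAA, 88 to 80 bases before the start, and an overlapping match to the GAAA repeat, 82 to 73 bases before it. Fcgr1 held TTCNNNGAA 109 to 101 bases and GAGGAA, read on the other strand, 55 to 50 bases before its start. Fcgr4 held the GAAA repeat 73 to 64 bases and GAGGAA, again on the other strand, 22 to 17 bases before its start. Of 32851 promoters of the same length, 23.3% held GAGGAA, 7.02% held TTCNNNGAA and 2.98% held the GAAA repeat. The motifs were picked with these sequences in view, and a match of letters is a description and not a binding site.

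Ncf1, the oxidase organiser, was the only gene of the 4 past the threshold, an adjusted p below 0.05. In the authors' deposited table for UPS and CTL its log2 ratio was 0.26 (linear ratio 1.2, p = 0.000113, Benjamini-Hochberg adjusted p = 0.00897). In the authors' deposited table for UPS and LB the log2 ratio was 0.32 (linear ratio 1.25, p = 5.31e-06, Benjamini-Hochberg adjusted p = 0.000317). UPS thus stood apart from CTL and from LB on the same side. For this and every other gene, both comparisons use the same 16 UPS libraries and are not independent. The recovered 95% intervals ran from 0.14 to 0.38 (1.10-fold to 1.31-fold) between UPS and CTL, and from 0.20 to 0.44 (1.15-fold to 1.36-fold) between UPS and LB. Between LB and CTL the log2 ratio in the authors' deposited table was -0.058 (p = 0.346, adjusted p = 0.76), with an interval from -0.18 to 0.065. By p-value Ncf1 took place 6 of the 478 genes between UPS and CTL and place 8 between UPS and LB, and by size of the log2 ratio places 20 and 19. With Benjamini-Yekutieli or Holm adjustment its UPS and CTL ratio no longer passed (adjusted p = 0.0607 and 0.0534), while the UPS and LB ratio passed under every adjustment tried.

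The count of members was read against the panel. Between UPS and CTL 1 of 4 members passed, where 4.81% of all genes did, and between UPS and LB 1 of 4, where 6.28% did. None of the 4 passed between LB and CTL, where the share of the panel was 0 of 478 genes (0%) in the authors' deposited table, with 56 genes (11.7%) and no member at an unadjusted p below 0.05. At that unadjusted threshold Ncf1 and Sirpa were called between UPS and CTL (16.3% of all genes) and between UPS and LB (18.8%). The median size of the log2 ratio over the 4 members was 0.15 between UPS and CTL, beside 0.051 over all genes, 0.072 beside 0.054 between UPS and LB, and 0.041 beside 0.043 between LB and CTL. The 0.15 rests on Sirpa (0.097) and the imprecise Fcgr4 (-0.21, standard error 0.12), neither of which passed. Since the members were chosen with earlier results of these data known, these counts and sizes are a description and not a test.

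**Figure D1:**
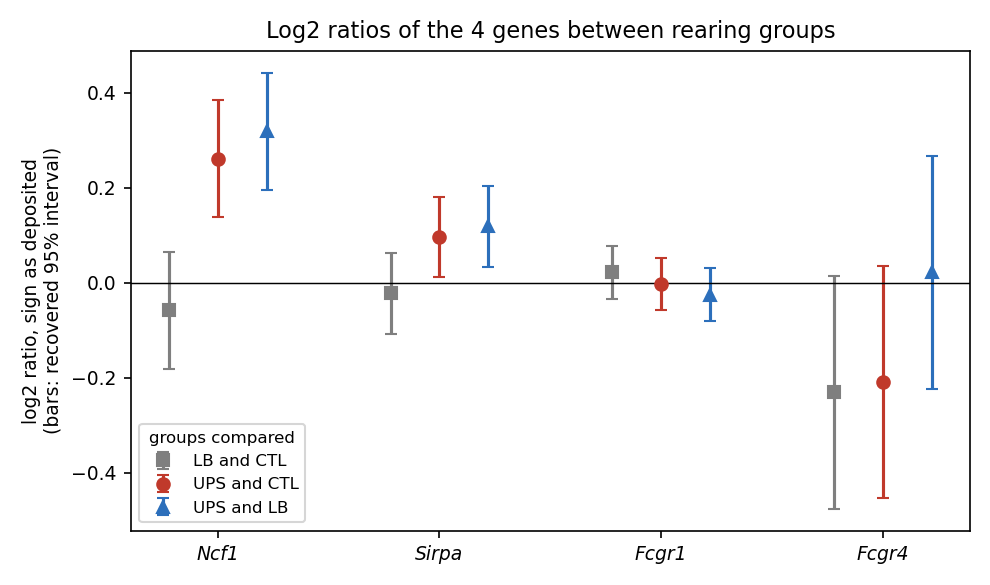
Log2 ratios of Ncf1, Sirpa, Fcgr1 and Fcgr4 (x axis) in the 3 comparisons of the authors' deposited tables (y axis, sign as deposited), with recovered 95% intervals as bars, 16 animals per group. Both UPS ratios of Ncf1, 0.26 and 0.32, lie clear of 0, those of Sirpa, 0.097 and 0.12, lie on the same side, Fcgr1 stays within narrow intervals around 0, and Fcgr4 has the widest bars.

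Sirpa, the receptor that restrains engulfment, showed the same order of ratios as Ncf1 at a smaller size and did not pass. Its log2 ratio was 0.097 between UPS and CTL in the authors' deposited table (linear ratio 1.07, p = 0.0268, Benjamini-Hochberg adjusted p = 0.237). In the authors' deposited table for UPS and LB it was 0.12 (linear ratio 1.09, p = 0.00709, adjusted p = 0.0788). The recovered intervals, 0.012 to 0.18 and 0.034 to 0.20, lay above 0 before any adjustment for the 478 genes. LB and CTL differed by a log2 ratio of -0.023 in the authors' deposited table (p = 0.595), with an interval from -0.11 to 0.062. At the largest p that passed in each table, a gene with the standard error of Sirpa would have needed a log2 ratio of 0.14 in either UPS comparison.

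Fcgr1, the high-affinity IgG receptor, was measured with high precision and gave ratios close to 0. Its log2 ratio was -0.0034 between UPS and CTL (p = 0.902), -0.025 between UPS and LB (p = 0.364) and 0.022 between LB and CTL (p = 0.432) in the authors' deposited tables. Its recovered standard error of 0.027 was the 19th smallest of the panel, and the interval for UPS and CTL ran from 0.960-fold to 1.04-fold. The intervals for UPS and LB (0.946-fold to 1.02-fold) and for LB and CTL (0.977-fold to 1.05-fold) leave out differences of the size seen for Ncf1 between UPS and LB, if animals are independent.

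Fcgr4, the receptor for IgG2 subclasses, had ratios against CTL of similar size to that of Ncf1, with the opposite sign, and none passed. The authors' deposited tables give log2 ratios of -0.21 between UPS and CTL (linear ratio 0.865, p = 0.0924, adjusted p = 0.394) and -0.23 between LB and CTL (linear ratio 0.852, p = 0.064, adjusted p = 0.444). These comparisons share the 16 CTL libraries. Between UPS and LB the log2 ratio was 0.022 in the authors' deposited table (p = 0.858). Its recovered standard error, 0.12, was 4.46 times that of Fcgr1 and place 432 of 478 in order from the smallest. The interval for UPS and CTL ran from 0.730-fold to 1.03-fold and that for LB and CTL from 0.719-fold to 1.01-fold, so a negative ratio of the size of that of Ncf1 could be neither shown nor left out. A log2 ratio of 0.40 would have been needed to pass between UPS and CTL.

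**Figure D2:**
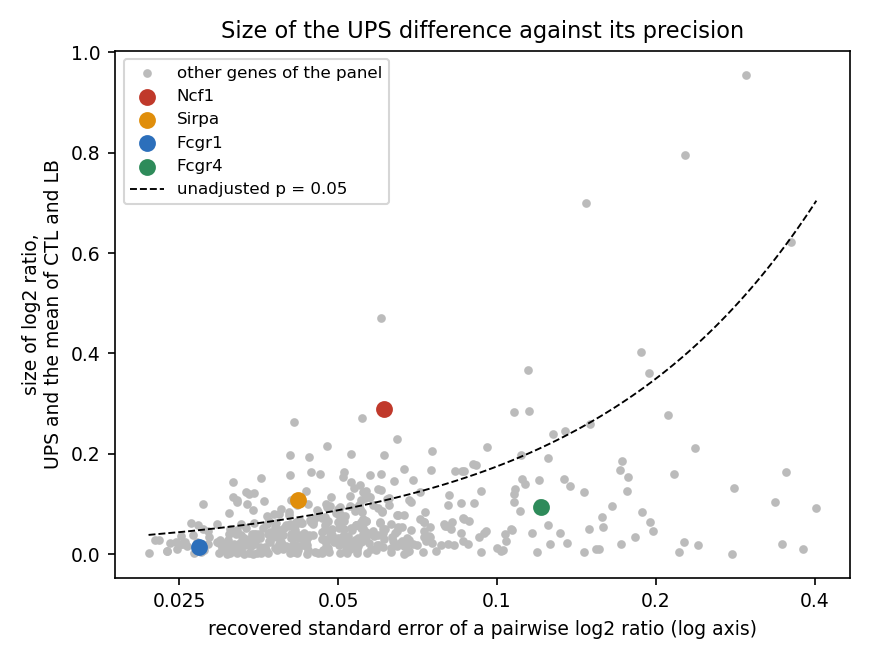
Size of the log2 ratio between UPS and the mean of CTL and LB (y axis) against the recovered standard error of a pairwise log2 ratio (x axis, log scale) for the 478 genes, with the 4 genes in colour and a dashed line where the unadjusted p is 0.05. Ncf1 and Sirpa lie above the line, Fcgr1 lies at the left with a standard error of 0.027, and Fcgr4 lies at the right, below the line, with 0.12.

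An overall test asked whether any of the 3 groups differed. It was rebuilt for each gene from the 3 log2 ratios and the standard error as an F test with 2 and 42 degrees of freedom. Of the 478 genes 33 passed (6.9%), and 1 of the 4 members, Ncf1 (F = 15.4, Benjamini-Hochberg adjusted p = 0.000647, place 7 by p). Sirpa had F = 4.53 (p = 0.0166, adjusted p = 0.126), Fcgr4 F = 2.20 (p = 0.123, adjusted p = 0.376) and Fcgr1 F = 0.495 (p = 0.613, adjusted p = 0.77). At an unadjusted p below 0.05 the F test called 94 genes (19.7%), Ncf1 and Sirpa among them. Per the series text, the authors' own multivariate test, which also had sex as a factor, called 87 genes for rearing, and which genes those were is not given in the sources used here.

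The rearing differences were then divided into a part between LB and CTL and a part between UPS and the mean of those groups. In Ncf1 the UPS part held 97.0% of the sum of squares between groups, and the log2 ratio of UPS and that mean was 0.29 (95% interval 0.18 to 0.40, Benjamini-Hochberg adjusted p = 0.000181). In Sirpa the UPS part held 96.8%, with a log2 ratio of 0.11 (interval 0.034 to 0.18, p = 0.00502, adjusted p = 0.0615). Of all genes 35 passed this contrast (7.32%) and of the members 1, Ncf1. With each table centred on its median gene, Sirpa passed as well (log2 ratio 0.11, adjusted p = 0.0440). In Fcgr4 the UPS part held 17.9% (log2 ratio -0.093, interval -0.31 to 0.12) and in Fcgr1 36.5% (-0.014, interval -0.062 to 0.033). The median of the UPS part was 57.0% over all 478 genes and 95.6% over the 33 genes past the F test, of which Ncf1 is the only member. This contrast was chosen with earlier results of these tables known.

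**Figure D3:**
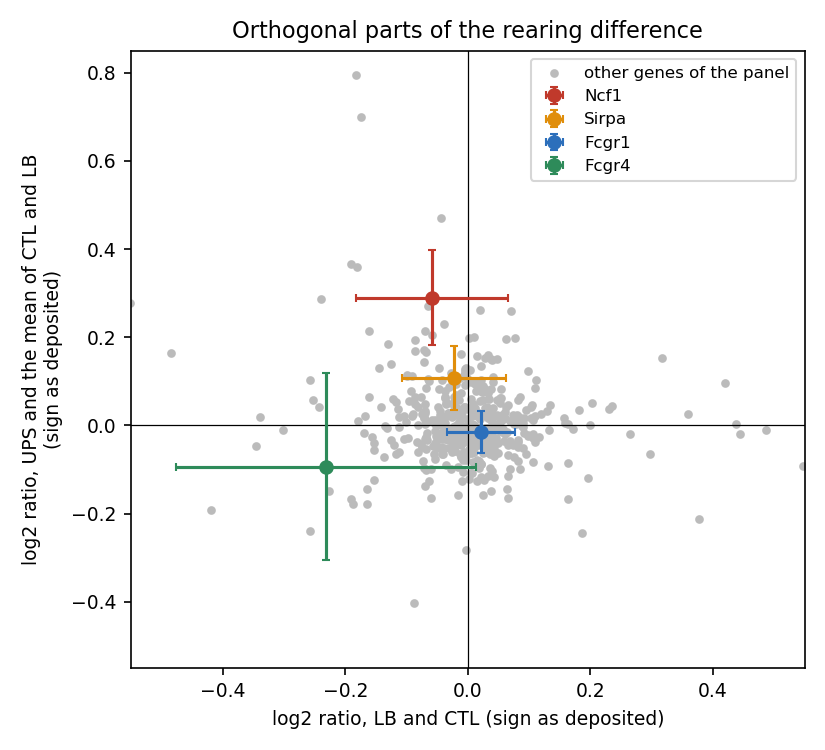
Log2 ratio of LB and CTL (x axis) against that of UPS and the mean of CTL and LB (y axis), signs as deposited, for the panel in grey and the 4 genes in colour with 95% intervals as bars. Ncf1 (0.29) and Sirpa (0.11) lie above the horizontal line and close to the vertical one, Fcgr1 lies near the origin and Fcgr4 lies to the left at -0.23; 7 genes fall outside the axes.

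Whether the members differed from each other was set out as intervals, chosen after the values were seen. Since the correlation of genes across animals is unknown, each interval is the widest that any correlation allows. Between UPS and CTL, the ratio of Ncf1 exceeded that of Fcgr1 by 0.26 on the log2 scale (0.086 to 0.44) and that of Fcgr4 by 0.47 (0.10 to 0.84). Between UPS and LB, the ratio of Ncf1 exceeded that of Fcgr1 by 0.34 (0.17 to 0.52), and that of Sirpa exceeded it by 0.14 (0.0042 to 0.28). The other pairs of the 6 gave intervals that held 0 in each of these comparisons, as did all 6 between LB and CTL. Ncf1 and Sirpa were among these, at a difference of 0.16 (-0.044 to 0.37) between UPS and CTL and 0.20 (-0.0083 to 0.41) between UPS and LB. Fcgr1 and Fcgr4 differed by 0.21 (-0.094 to 0.51) between UPS and CTL. These intervals carry no adjustment for the number of pairs.

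Among the other 474 genes, those nearest in pattern were found by the distance between their 3 log2 ratios, which stand for 3 groups. Cables1, a Cdk5-binding protein, lay nearest to Ncf1 (distance 0.029), with log2 ratios of 0.24 between UPS and CTL, 0.30 between UPS and LB and -0.065 between LB and CTL in the authors' deposited tables. The glutamate transporter Slc1a3 (0.088) and the apoptotic cell receptor Mertk (0.10) followed by distance. Nearest to Sirpa were Trim2, a ubiquitin ligase (distance 0.012), the complement gene C1qc (0.017) and the metalloprotease inhibitor Reck (0.020). C1qc had log2 ratios of 0.11 between UPS and CTL and 0.13 between UPS and LB in the authors' deposited tables, and passed in the second (adjusted p = 0.00956). The clock transcription factor Arntl (0.078), the complement protease C1ra (0.10) and the leukotriene receptor Cysltr1 (0.11) were nearest to Fcgr4. Of these Cysltr1 passed between UPS and CTL in the authors' deposited table (log2 ratio -0.23, adjusted p = 0.031). Ndufa10 of respiratory complex I (0.0067), the nuclear import adaptor Kpna1 (0.0089) and the adhesion molecule Nptn (0.0095) were nearest to Fcgr1. None of the 3 passed in any comparison, nor did Trim2, Reck, Arntl or C1ra.

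Of 42 genes listed for Fc gamma receptors and their signalling, 9 were measured, 7 of them besides Fcgr1 and Fcgr4. None of those 7 passed with a negative ratio, or between LB and CTL, where no gene of the panel did. With a positive ratio 2 passed between UPS and CTL and 2 between UPS and LB, where 4.81% and 6.28% of all genes passed with either sign. They were Pik3cb, a catalytic PI3-kinase subunit, at log2 ratios of 0.18 (adjusted p = 0.0199) and 0.25 (adjusted p = 0.000317), and Pik3r1, a regulatory PI3-kinase subunit, at 0.16 (adjusted p = 0.031) and 0.17 (adjusted p = 0.0122), in the authors' deposited tables for UPS and CTL and for UPS and LB. Both subunits serve many receptors. Prkcd, a protein kinase C that phosphorylates Ncf1, had 0.078 and 0.044 in the same authors' deposited tables and did not pass. The median log2 ratio of the 7 was 0.033 between UPS and CTL (all genes -0.0025), 0.044 between UPS and LB (all genes -0.010) and -0.019 between LB and CTL (all genes 0.0035). Of 22 genes listed for the NADPH oxidase only Ncf1 and Prkcd were measured, and the other subunits were not analysed here.

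Of 34 genes listed for Sirpa and other inhibitory receptors, 7 were measured besides Sirpa and none passed in any comparison. The list also holds ligands and signalling genes, and not every receptor on it is inhibitory. Cd47, the ligand of Sirpa, had log2 ratios of -0.070 between UPS and CTL (p = 0.123) and -0.066 between UPS and LB (p = 0.143) in the authors' deposited tables, on the opposite side to Sirpa. Ptpn11, which encodes Shp2, was at 0.014 and -0.043 in those authors' deposited tables. Cd33, a lectin, had -0.11 between UPS and LB in the authors' deposited table (p = 0.0192, adjusted p = 0.148). Siglech had 0.050 between LB and CTL (p = 0.0398, adjusted p = 0.413), and Lair1, a collagen receptor, 0.10 between UPS and CTL (p = 0.113) in the authors' deposited tables. The median log2 ratio of the 7 was 0.020 between UPS and CTL (all genes -0.0025), -0.030 between UPS and LB (all genes -0.010) and 0.040 between LB and CTL (all genes 0.0035). Of the 7, 5 had a positive ratio between UPS and CTL but 2 between UPS and LB.

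Of 34 other phagocytosis receptors and bridging molecules 15 were measured. Of these, 2 passed between UPS and CTL, where 4.81% of all genes did, and 5 between UPS and LB, where 6.28% did. Each of these ratios was positive. None of the 15 passed between LB and CTL, where no gene of the panel did. Mertk, which binds apoptotic cells through Gas6 and Pros1, was at 0.27 between UPS and CTL and 0.25 between UPS and LB on the log2 scale of the authors' deposited tables, near Ncf1. Stab1, a scavenger receptor, was the other gene past the threshold in both, at 0.21 and 0.20 in those authors' deposited tables. C1qa and C1qb, chains of the opsonin C1q, were at 0.13 and 0.16 between UPS and LB in the authors' deposited table, and C1qc also passed there. The median log2 ratio of the 15 was 0.069 between UPS and CTL (all genes -0.0025), 0.080 between UPS and LB (all genes -0.010) and 0.0055 between LB and CTL (all genes 0.0035).

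Redox defence was covered by 5 measured genes of 35 listed, not all of them enzymes or specific to superoxide. None of the 5 passed in any comparison. Hmox1, the stress-induced heme oxygenase, had log2 ratios of 0.16 between UPS and CTL (p = 0.0943) and 0.24 between LB and CTL (p = 0.0173, adjusted p = 0.306) in the authors' deposited tables. Sod1, a superoxide dismutase, had -0.037 between UPS and CTL and -0.076 between UPS and LB (p = 0.0659) in the authors' deposited tables. Txn1, thioredoxin, had -0.074 and -0.048 in the same authors' deposited tables. All 5 had a negative ratio between UPS and LB, with a median of -0.065 beside -0.010 over all genes. None of these 5 ratios had an unadjusted p below 0.05.

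**Figure D4:**
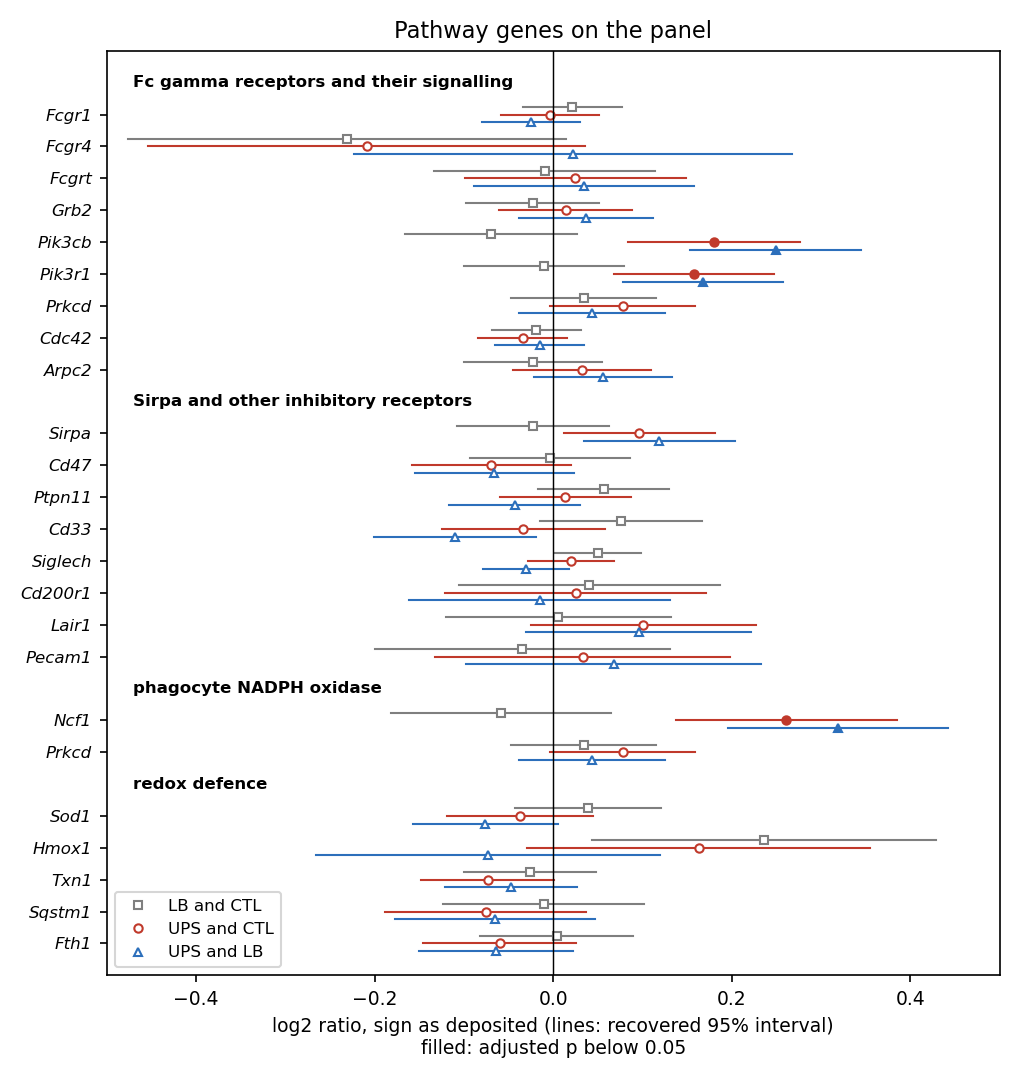
Log2 ratios (x axis, sign as deposited) with recovered 95% intervals for the measured genes of the Fc receptor, inhibitory receptor, NADPH oxidase and redox lists (rows), in the 3 comparisons, with filled symbols where the Benjamini-Hochberg adjusted p was below 0.05. Filled symbols appear for Ncf1, Pik3cb and Pik3r1 in the UPS comparisons, while Cd47 (-0.070 and -0.066) lies on the opposite side to Sirpa.

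Fc receptors, Sirpa and Ncf1 are also expressed by monocytes, neutrophils and border macrophages, and Sirpa by neurons, so markers of these cells were set beside them. Csf3r, the 1 gene measured of the neutrophil list, is not specific to neutrophils. In the authors' deposited tables its log2 ratios were -0.062 between UPS and CTL (p = 0.231) and 0.11 between UPS and LB (p = 0.0443). Between LB and CTL the authors' deposited table gave -0.17 (p = 0.00204). The adjusted p-values were 0.556, 0.245 and 0.194, in that order. Of 12 border macrophage markers 3 were measured, and of these Stab1 passed in both UPS comparisons. Apoe had 0.13 in each UPS comparison (p = 0.0451 and 0.0386) and Cd74 had 0.084 between UPS and CTL and -0.21 between UPS and LB in the authors' deposited tables. Both astrocyte markers measured of 9 listed had positive ratios in the UPS comparisons, and Slc1a3 passed, at 0.21 and 0.25, while Glul, at 0.11 and 0.15, did not, in the authors' deposited tables. The 1 neuronal marker measured of 10, Gad1, was at -0.047 between UPS and CTL and 0.0029 between UPS and LB in the authors' deposited tables. Klrd1, the 1 of 16 lymphoid markers measured, had -0.77 between UPS and CTL in the authors' deposited table (p = 0.0388, adjusted p = 0.294). Its recovered interval there was wide, from -1.5 to -0.042. The Klrd1 ratio was -0.47 between UPS and LB (p = 0.199) and -0.30 between LB and CTL (p = 0.411) in the authors' deposited tables. Of 4 oligodendrocyte lineage and 2 vascular markers measured, none passed in any comparison. Cspg4, a proteoglycan of oligodendrocyte precursors, had log2 ratios of 0.27 between UPS and CTL (p = 0.168) and 0.45 between UPS and LB (p = 0.0254, adjusted p = 0.176) in the authors' deposited tables, on the same side as Ncf1. The vascular and stem cell gene Cd34 had log2 ratios of -0.40 between UPS and CTL (adjusted p = 0.0511) and -0.42 between LB and CTL (adjusted p = 0.194) in the authors' deposited tables, on the same side as Fcgr4, while Pecam1, the other vascular gene, had 0.033 (p = 0.687) and -0.035 (p = 0.676) in those authors' deposited tables. The part of other cells in the ratios of the 4 genes was not tested. The 18 microglial markers had 10 positive and 8 negative ratios between UPS and CTL, none past the threshold, which 4.81% of all genes passed. Between UPS and LB there were again 10 positive and 8 negative. There 4 of the 18 passed, where 6.28% of all genes did: Tmem119 at 0.46 and the 3 C1q genes in the authors' deposited table.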

How the data were processed

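Transcripts of sorted hippocampal microglia from 48 pups were counted on an nCounter glial panel. Per the file headers, each deposited table lists 478 genes with the log2 ratio, the linear fold (a ratio), the p-value and its Benjamini-Hochberg adjusted value. Per the series text, the authors compared pairs of groups in nSolver with batch as a covariate, after a first test on genes above 20 counts. How counts were normalized, and by which software version, is not given in the sources used here; depth is unknown.

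No model was refitted. Deposited p-values were adjusted by Benjamini-Hochberg over each table, with a threshold of 0.05. Standard errors came from each gene's log2 ratio and smallest two-sided p by a t distribution with 42 degrees of freedom, those of 48 libraries less terms for rearing and batch. That choice was not settled by the files. The F test and the contrast of UPS rest on these standard errors. This recovery was tested on data simulated with 42 degrees of freedom and independent animals, so that test bears on neither assumption. The plan's named genes were the 4 members, up to 3 genes per list with the smallest p, and the 3 nearest in pattern per member. A gene that this rule names is not reported here. Further list genes (Cd47, Ptpn11, C1qc) were named after their values were seen. Members and the 15 lists were chosen with earlier results of these data known. Of 478 symbols 476 matched the RefSeq gene table of GRCm38.p6. Python 3.11.15, SciPy 1.17.1 and pandas 2.3.3 were used.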

Additional observations from a re-analysis of the deposited data

How the results depend on the processing

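No library could be left out and batches could not be taken singly, because the tables hold comparisons and not values per library. No paired analysis was possible because of the same lack of values per library. Of 114 values recomputed under other adjustments, centring and degrees of freedom 103 kept their direction and their side of the threshold, or a count within 1.5 times, and none reversed. An adjustment leaves the log2 ratio as it is, so only centring could have reversed a sign. Benjamini-Yekutieli and Holm adjustment can only raise an adjusted p, so a ratio that had not passed could not pass under them. Much of the 103 was thus fixed in advance and is no measure of robustness. With Benjamini-Yekutieli and Holm adjustment the count between UPS and CTL fell to 4 and 5 of 478 genes, against 23, and that of the members to 0 and 0, since the Ncf1 ratio of 0.26 lost its call (adjusted p = 0.0607 and 0.0534). Between UPS and LB 13 and 11 genes passed under these adjustments, against 30, and Ncf1 was called under both. The F test called 12 genes with Benjamini-Yekutieli adjustment, against 33, and Ncf1 passed (adjusted p = 0.00436). Adjusted over the 3 tables together, 3 genes passed between LB and CTL, none of them a member. Centred on the median gene, the Sirpa ratio of UPS and the mean of CTL and LB, 0.11, passed (adjusted p = 0.0440), while its adjusted p ran from 0.0440 to 0.415 over the alternatives. With 30 or 45 residual degrees of freedom the F test called 33 genes each time. Fcgr1 and Fcgr4 passed under none of the alternatives. What the precision of Fcgr4 depends on was not tested.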

Other observations

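Regulators that act upstream of Fc gamma receptors in macrophages were also on the panel. Of 19 listed genes of the interferon gamma pathway and myeloid transcription factors 8 were measured, and none passed in any comparison. Stat3, a cytokine-activated transcription factor, had a log2 ratio of 0.070 between UPS and CTL in the authors' deposited table (p = 0.0138, adjusted p = 0.169). Ifngr2, a chain of the interferon gamma receptor, had -0.051 between UPS and LB (p = 0.0606), and Spi1, which encodes PU.1, -0.037 between UPS and CTL (p = 0.119), in the authors' deposited tables. Spi1 was added after its values were seen. Of the 8 genes 7 had a negative ratio between UPS and LB, with a median of -0.028 beside -0.010 over all genes.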
